A study of Mus musculus with 4 samples.

Results

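The genes described here are 10 immediate early genes of the Egr, Ier, Zfp36, Klf and Nr4a families, Egr1, Egr2, Egr3, Ier2, Ier3, Zfp36, Klf2, Klf4, Klf6 and Nr4a1, out of 32970 genes with a probe on the array. They were found by the RefSeq transcript accession of each probe, and all 10 had a probe, 14 probes on 23 spots of each array. The samples were basal cells of the prostate, sorted by flow cytometry from adult FVB mice and grown as prostate spheres, a culture in which a single progenitor cell grows into a ball of cells. Spheres were grown with DAPT, which inhibits the γ-secretase that releases the active part of Notch receptors, at 5 µM, or with vehicle (DMSO), and the medium was changed every 24 h in both. The comparison addresses what Notch signalling does in basal cells, and DAPT also blocks the cleavage of other γ-secretase substrates. Each group had 2 arrays, DAPT 1 and DAPT 2 against vehicle 1 and vehicle 2, with sphere RNA in red and a universal mouse reference RNA in green, and with no dye swap. Whether the 2 arrays of a group stand for separate cultures or animals is not given in the labels. The p-values therefore reflect the spread between these samples alone, and that spread may be technical.

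Immediate early genes are switched on by growth factors, serum and stress from pre-existing proteins, without new protein synthesis. The best-known route runs through the ERK kinases to Elk factors and serum response factor, which sits on CArG boxes in their promoters, and the transcripts are short-lived. In epithelial cultures they are read as markers of recent growth factor or stress signalling. The Egr and Klf genes encode zinc finger transcription factors, Zfp36 encodes tristetraprolin, which binds AU-rich mRNAs and speeds their decay, Ier2 and Ier3 encode small proteins without a DNA-binding domain of these families, and Nr4a1 encodes the orphan nuclear receptor Nur77.

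The promoters of the members are shown for the sites that this route and the Egr proteins themselves use. RefSeq promoter sequences of the GRCm38.p6 assembly, from 250 bases before to 50 bases after an annotated start, were at hand for 7 of the 10 genes, Egr2, Ier3, Zfp36, Klf2, Klf4, Klf6 and Nr4a1. A CArG box was found in 2 of the 7, Egr2 and Zfp36, and in 1.81% of all 27025 genes with a promoter entry. An EGR site, searched as GCGTGGGCG or GCGGGGGCG on both strands, was found in 4 of the 7, Zfp36, Klf2, Klf4 and Nr4a1, and in 3.93% of all genes. Capitals mark the CArG box in the first 2 lines, both motifs in the Zfp36 line and the EGR site in the others, each read on the strand of its gene.
Egr2, upstream start: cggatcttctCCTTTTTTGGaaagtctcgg
Egr2, downstream start: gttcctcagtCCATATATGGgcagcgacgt
Zfp36: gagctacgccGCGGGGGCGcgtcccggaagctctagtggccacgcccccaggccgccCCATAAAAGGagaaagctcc
Klf2: gggcccggccGCGGGGGCGgggcttgagg
Klf4: gcccctccctCGCCCCCGCccccacgtgc
Nr4a1: gcgtcagtggCGCCCCCGCccctctccat
The Egr2 stretches lie at chr10:67537484-67537513 and chr10:67537787-67537816 on the plus strand, each 82 to 53 bases before an annotated start. The Zfp36 stretch lies at chr7:28379267-28379343 on the minus strand, 115 to 39 bases before the start. The Klf2 stretch is chr8:72318853-72318881 (plus strand), that of Klf4 chr4:55532651-55532679 (minus strand) and that of Nr4a1 chr15:101266776-101266804 (plus strand). The ETS core CCGGAA, to which Elk factors bind, was present in 3 of the 7 genes (Egr2, Zfp36 and Nr4a1) against 16.7% of all genes, and in Zfp36 it lies between the EGR site and the CArG box. In the more upstream Egr2 window that holds a CArG box, 2 of the 3 ETS cores overlapped each other on opposite strands. Neither the cyclic AMP element TGACGTCA (2.03% of all genes), nor GTGGGAA, to which the Notch partner RBPJ binds (7.25%), nor TATAAA (15.7%) was in these windows of the members. A match of letters is not a bound site, and these windows say nothing about sites elsewhere.

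Array-wide, the red signal was well above background for 63.7% to 69.5% of spots, and the correlation of log ratios over 21464 genes was 0.944 for the DAPT arrays, 0.922 for the vehicle arrays and 0.839 to 0.879 across groups. Scanner software marked 49.6% and 50.9% of probe spots as non-uniform or as outliers on DAPT 1 and DAPT 2, against 11.5% and 29.2% on vehicle 1 and vehicle 2. Of the 23 spots of the members, 12 and 18 were marked on the DAPT arrays and 3 and 5 on the vehicle arrays. Without marked spots Egr2 (-0.85) and Egr3 (-1.20, limma, adjusted p = 0.00093) were the only members left to test. All 10 Egr2 spots of DAPT 2 were marked, so this Egr2 value rests on DAPT 1 alone against vehicle. For the other 8 members the part of the marks was not tested. Of 6 basal markers all were tested, and the basal keratin Krt5 had log2 ratios over the reference of 4.67 and 5.17 with DAPT and 4.67 and 4.63 with vehicle. The luminal keratins Krt8, Krt18 and Krt19 also lay above the reference on each array, Krt19 with log2 ratios of 4.47 and 4.61 with DAPT and 5.67 and 5.65 with vehicle, while Pbsn (probasin), a luminal secretory gene, was too dim to be tested.

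With DAPT, 6 of the 10 immediate early genes fell and none rose (limma, with none higher at an unadjusted p under 0.05 either). Egr1 fell 3.84-fold, Zfp36 2.63-fold, Egr3 2.29-fold, Ier3 2.21-fold, Egr2 1.76-fold and Ier2 1.72-fold. The fall of Ier2 was one of the ratio, and its sphere and reference signals each overlapped between the groups. Klf6, Klf2, Klf4 and Nr4a1 did not pass the test. Among all 21464 genes tested, 3.91% were lower and 2.89% higher at an adjusted p under 0.05 (limma on the log2 ratio of red over green, Benjamini-Hochberg over all genes). In bulk RNA fewer cells that express a gene and less RNA per cell cannot be told apart. The median change of the members was -0.80 on the log2 scale, against -0.059 for all genes. Both DAPT log ratios lay below both vehicle log ratios for 7 of the 10 members (the 6 and Klf6), as they did for 31.7% of all genes.

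**Figure D1:**
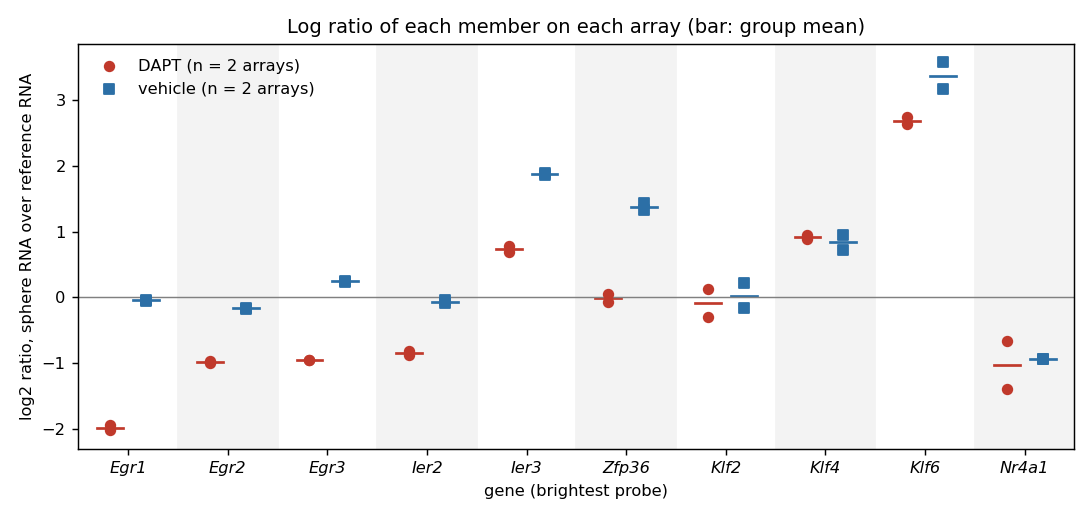
Log2 ratio of sphere RNA over reference RNA (vertical axis) for the brightest probe of each of the 10 genes, with a point for each array, DAPT left of vehicle, and a bar at the group mean. For Egr1 the DAPT arrays sit at -2.02 and -1.95 and the vehicle arrays at -0.060 and -0.034, while for Klf2, Klf4 and Nr4a1 the groups overlap.

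Egr1, the founding zinc finger factor of its family and the most widely used reporter of ERK signalling, had the largest change of the 10. Its log2 ratios over the reference were -2.02 and -1.95 on DAPT 1 and DAPT 2, against -0.060 and -0.034 on vehicle 1 and vehicle 2. Both DAPT arrays were thus far below both vehicle arrays, and the arrays of a group differed by less than 0.1. The change was -1.94 ± 0.19 (log2, SE, n = 2 arrays per group; limma, adjusted p = 0.00017), and 54 of the 21464 genes, Egr1 included, had a change as low or lower. Before any correction, the median red signal of its spot was 273 and 298 with DAPT and 570 and 356 with vehicle, and the green signal was 2911 and 2860 with DAPT and 1744 and 1424 with vehicle. After normalization within and between arrays the mean log2 red signal was 8.50 ± 0.33 with DAPT and 10.02 ± 0.28 with vehicle (SD, n = 2 each). The red signal was thus lower by 1.52, and the green signal was higher by 0.42 with DAPT.

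Egr3, a relative best known from muscle spindles and lymphocytes, had log2 ratios of -0.95 and -0.96 with DAPT and 0.25 and 0.24 with vehicle. The groups did not overlap, and the change was -1.20 ± 0.19 (limma, adjusted p = 0.00356). Its spots were dim, with a red signal 1.94 and 1.97 times the local background on the DAPT arrays and 3.07 and 2.08 times on the vehicle arrays. With the scanner software's processed signals the change was -2.08. In the red channel alone the mean was 7.34 ± 0.15 with DAPT and 8.24 ± 0.47 with vehicle (log2, SD, n = 2 each), a difference of -0.90. None of its spots was marked on any array.

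Egr2, also called Krox20 and known for its part in myelination, was the only member printed 10 times on each array. Its log2 ratios, averaged over those spots, were -0.99 and -0.96 with DAPT and -0.15 and -0.18 with vehicle. Single spots ranged from -1.26 to -0.68 on DAPT 1 and from -1.20 to -0.69 on DAPT 2. On vehicle 1 they ranged from -0.40 to 0.16 and on vehicle 2 from -0.36 to 0.092. All Egr2 spots of both DAPT arrays were therefore below all those of the vehicle arrays, though spots of an array share its RNA and are no replicates. Scanner software marked 2 of the 10 spots on DAPT 1, all 10 on DAPT 2, 1 on vehicle 1 and 0 on vehicle 2. The change was -0.81 ± 0.19 (limma, adjusted p = 0.0253). After normalization within and between arrays -0.76 of it lay in the red channel, while green differed by 0.051. Before any correction red was 193.5 and 174.05 with DAPT and 199.45 and 185.9 with vehicle. Green was then 1138.4 and 922.4 with DAPT and 640.55 and 781 with vehicle, so the split by channel rests on the normalization. Without DAPT 1 or without DAPT 2 the call was lost at about the same size (-0.80 and -0.83, adjusted p = 0.0678 and 0.0683).

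Zfp36, the tristetraprolin gene, had log2 ratios of 0.053 and -0.076 with DAPT and 1.32 and 1.44 with vehicle. The groups were well apart, with a change of -1.39 ± 0.19 (limma, adjusted p = 0.00148). After normalization within and between arrays the whole of it lay in the sphere channel, since red differed by -1.40 and green by -0.0088. A second, dimmer probe of Zfp36 had log2 ratios of 0.77 and 0.49 with DAPT and 1.35 and 0.97 with vehicle. That probe changed by -0.53 ± 0.21 and did not pass (limma on every probe, adjusted p = 0.153), so the 2 probes have the same sign and differ in size. The processed signals gave -0.88 for the brighter probe, which did not pass (limma, adjusted p = 0.138).

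Ier3, also known as IEX-1 and tied to cell survival and ERK signalling, had log2 ratios of 0.69 and 0.78 with DAPT and 1.89 and 1.87 with vehicle. It fell by 1.14 ± 0.19 (limma, adjusted p = 0.00479), with no overlap between the groups. The red signal was lower by more than the ratio, with means of 9.11 ± 0.24 with DAPT and 10.95 ± 0.74 with vehicle (log2, SD, n = 2 each). The green signal of the reference was lower as well, by 0.70 in the mean, and the 2 vehicle arrays differed in both channels.

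Ier2, which encodes a small nuclear protein, had log2 ratios of -0.88 and -0.81 with DAPT and -0.045 and -0.083 with vehicle. The ratio changed by -0.78 ± 0.19 (limma, adjusted p = 0.0305). Unlike the other 5 genes that fell, its sphere signal overlapped between the groups, at 10.33 and 10.64 on the DAPT arrays and 11.33 and 9.66 on the vehicle arrays (log2 red after normalization). The means differed by -0.011 in red and by 0.77 in green, but both differences rest on the dim spot of vehicle 2. Log2 green was 11.21 and 11.45 on the DAPT arrays, 11.38 on vehicle 1 and 9.75 on vehicle 2. Set against vehicle 1 alone, red was lower on both DAPT arrays, while the green of vehicle 1 lay between theirs. The change of the ratio can therefore not be assigned to 1 channel. On vehicle 2 the spot was dim in both channels, with a raw red signal of 321 against 1160, 1083.5 and 1200 on DAPT 1, DAPT 2 and vehicle 1. The call was lost without any 1 of DAPT 1, DAPT 2, vehicle 1 and vehicle 2 (adjusted p = 0.0898, 0.0757, 0.0547 and 0.0528), and the change was -0.33 with processed signals and -0.36 with median centring. The second Ier2 probe was not well above background on any array, and its log2 ratios were -0.13 and -0.33 with DAPT and -0.16 and 0.15 with vehicle.

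Klf6, a Krüppel-like factor studied as a tumour suppressor in the prostate, had log2 ratios of 2.63 and 2.74 with DAPT and 3.16 and 3.58 with vehicle. The groups did not overlap, but the vehicle arrays differed by more than those of the genes above. Its brightest probe changed by -0.68 ± 0.21 and did not pass (limma, adjusted p = 0.0722, 95% interval from -1.14 to -0.23). The other Klf6 probe had log2 ratios of 2.14 and 2.21 with DAPT and 3.22 and 3.19 with vehicle. This probe fell by 1.03 ± 0.19 in the fit of every probe (limma, adjusted p = 0.00896), with red lower by 1.01 and green different by 0.013. With scale normalization between arrays the brightest probe passed too (-1.35, adjusted p = 0.00785), as it did without vehicle 1 (-0.89, adjusted p = 0.0258).

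Klf2, a factor known from quiescent endothelium and lymphocytes, had log2 ratios of 0.12 and -0.31 with DAPT and -0.16 and 0.22 with vehicle. The groups overlapped, and the change of -0.12 ± 0.22 did not pass (limma, adjusted p = 0.795, 95% interval from -0.60 to 0.37). It turned to 0.34 with median centring, where the median of all genes was 0.11 (0.23 relative to it), and to 0.065 in red alone. A second, dim Klf2 probe stood at -0.40 and -0.24 with DAPT and 0.38 and 0.065 with vehicle. Those groups did not overlap, and the change of -0.54 ± 0.20 did not pass (limma on every probe, adjusted p = 0.129).

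Klf4, one of the reprogramming factors and a regulator of epithelial differentiation, had log2 ratios of 0.95 and 0.89 with DAPT and 0.73 and 0.95 with vehicle. The change of 0.080 ± 0.20 did not pass (limma, adjusted p = 0.848, 95% interval from -0.35 to 0.51), and its sign turned with scale normalization (-0.11). Red and green both averaged higher with DAPT, by 1.13 and 1.05, and this rested on a single dim spot. On vehicle 2 the raw red signal was 160, against 1431.5 and 1278 on the DAPT arrays and 800 on vehicle 1.

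Nr4a1 had log2 ratios of -1.39 and -0.67 with DAPT and -0.94 on both vehicle arrays. The DAPT arrays thus lay on either side of the vehicle arrays. The change of -0.092 ± 0.24 did not pass (limma, adjusted p = 0.858, 95% interval from -0.62 to 0.43). It was above 0 with processed signals (0.18), median centring (0.37) and scale normalization (0.12), or 0.086, 0.26 and 0.17 relative to the median of all genes, so no direction is given for it.

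**Figure D2:**
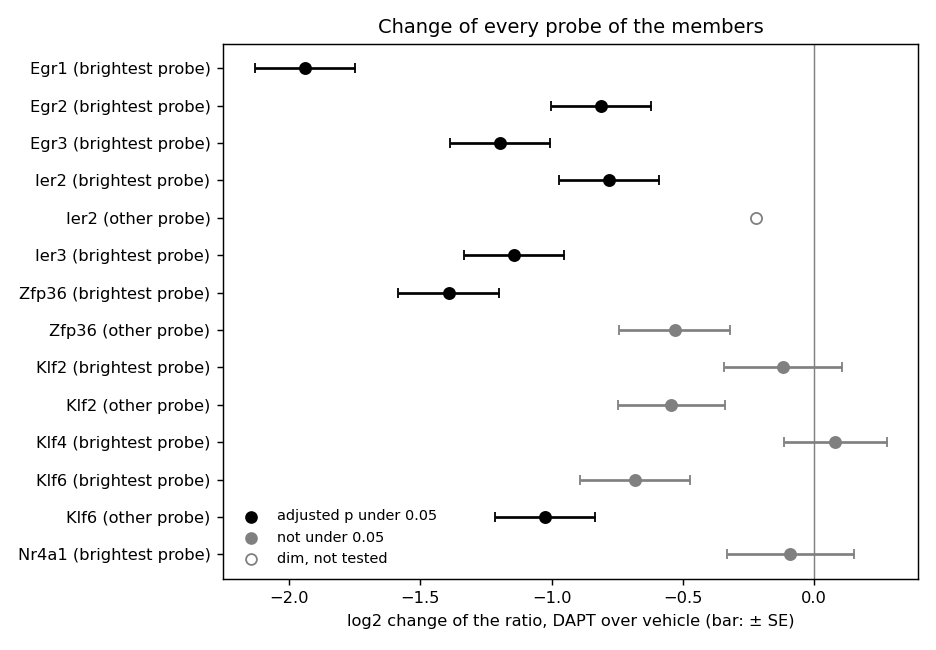
Log2 change of the ratio, DAPT over vehicle (horizontal axis), with its standard error for each of the 14 probes of the members, from a fit of every probe. Of the 13 probes tested 7 were lower at an adjusted p under 0.05 (black), against 3.73% of all probes kept. Below 0 lay 12 of the 13, where the median of all probes kept was -0.043. The dim second Ier2 probe (open) was not tested.

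Seen channel by channel, both DAPT red signals were below both vehicle red signals for 7 of the 10 members, Egr1, Egr2, Egr3, Ier3, Zfp36, Klf6 and Nr4a1. The same held for 25% of all genes. Green, where the same reference RNA was on every array, was above both vehicle arrays on both DAPT arrays for 1 of the 10, Egr1 (22.1% of all genes). As a scale for the sizes, green differences of all genes ran from -0.64 at the 5th percentile to 0.69 at the 95th, and red differences ran from -0.82 to 0.85. The red differences of Egr1, Ier3, Zfp36, Klf6 and Egr3 lay below that range of red and that of Klf4 above it. The green differences of Ier2 and Klf4 lay above the range of green and that of Ier3 below it. In red alone no member passed (limma), and 1 of all genes did, with 2631 genes at an unadjusted p under 0.05. The 1 gene was Mmp7, a metalloproteinase gene named here after its value was seen.

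**Figure D3:**
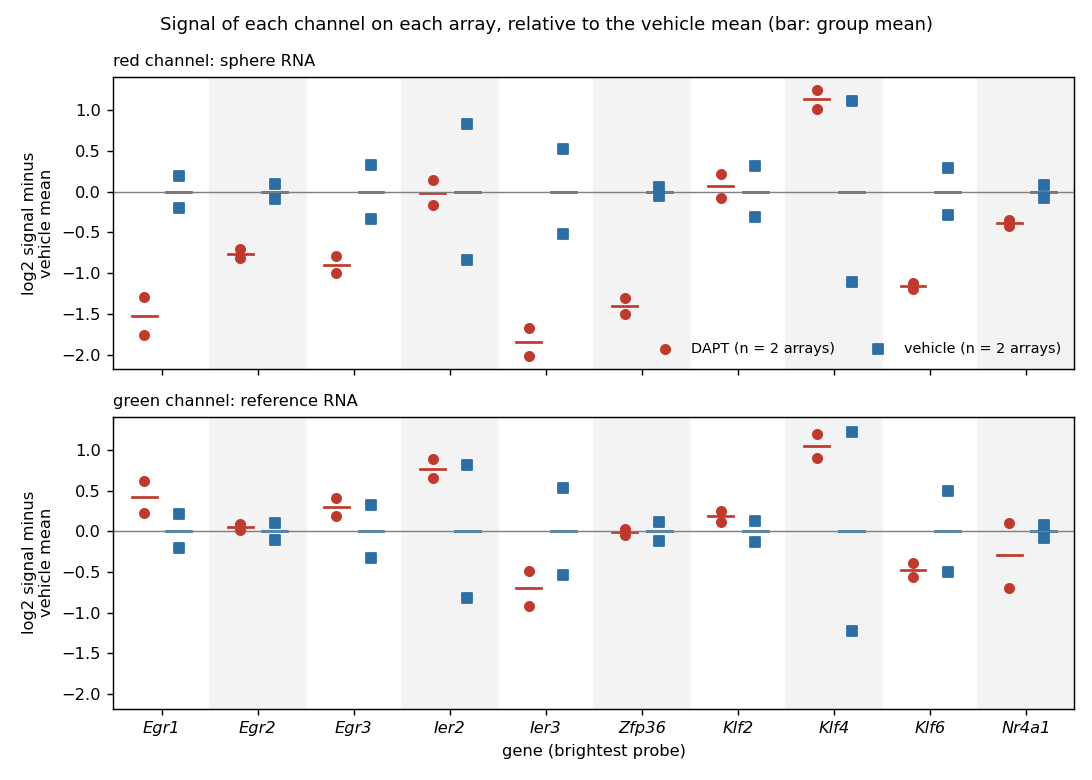
Log2 signal of sphere RNA (upper panel) and of reference RNA (lower panel) on each array after normalization, relative to the vehicle mean of the same probe, with DAPT left of vehicle and a bar at each group mean. Red is lower on both DAPT arrays for Egr1, Egr2, Egr3, Ier3, Zfp36, Klf6 and Nr4a1, and for Ier2 and Klf4 the lower vehicle point in each panel is the dim spot of vehicle 2.

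By the size of the difference over the 4 arrays, 3 members had the widest range of log ratios, Egr1 (1.99), Zfp36 (1.52) and Egr3 (1.20). Named genes whose centred log ratios lay nearest to those of Egr1 were Mmp11, Zfp36l1 and Clu, at root mean square distances of 0.049, 0.060 and 0.070. Near Zfp36 lay Taar9 and Cldn23 (0.058 and 0.062), and near Egr3 lay Mgst3 and Chchd10 (0.016 and 0.024). With 4 arrays in 2 groups such nearness says little more than a like difference between the groups.

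Other immediate early genes were counted from a list of 39, of which 37 were tested. With DAPT 15 of them fell and none rose (limma, and none was higher at an unadjusted p under 0.05), against 3.91% lower and 2.89% higher over all genes. The list was chosen with earlier results of these data known, so its count is no independent evidence for the members. The median change was -0.67 against -0.059 for all genes. Below 0 lay 31 of the 37, as did the greater part of all genes, whose median was itself below 0. Trib1, a pseudokinase gene, fell by 1.79 ± 0.22 (limma, adjusted p = 0.000569), with log2 ratios of 0.33 and 0.039 with DAPT and 1.77 and 2.19 with vehicle. The genes of the ERK phosphatases Dusp4 and Dusp6 fell, with changes of -1.72 and -1.47 (limma, adjusted p = 0.000528 and 0.00192). Atf3, a stress-induced factor, changed by -1.26, Hbegf, an EGF receptor ligand, by -1.13 and Ppp1r15a, a phosphatase subunit of the stress response, by -1.10. For Dusp6 and Hbegf the reference channel moved as much as the sphere channel or more, with red at -0.73 and -0.38 and green at 0.73 and 0.74. Fos, the best-known of these genes, was not tested, since 1 of its 10 spots was well above background on each DAPT array and 5 of 10 on each vehicle array. Its log2 ratios were -0.84 and -0.73 with DAPT and -0.32 and -0.18 with vehicle. The count of 15 was 4 with processed signals, 8 with median centring, 1 with the debris spots of DAPT 2 kept and 0 in red alone, and 11 to 16 without 1 array.

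**Figure D4:**
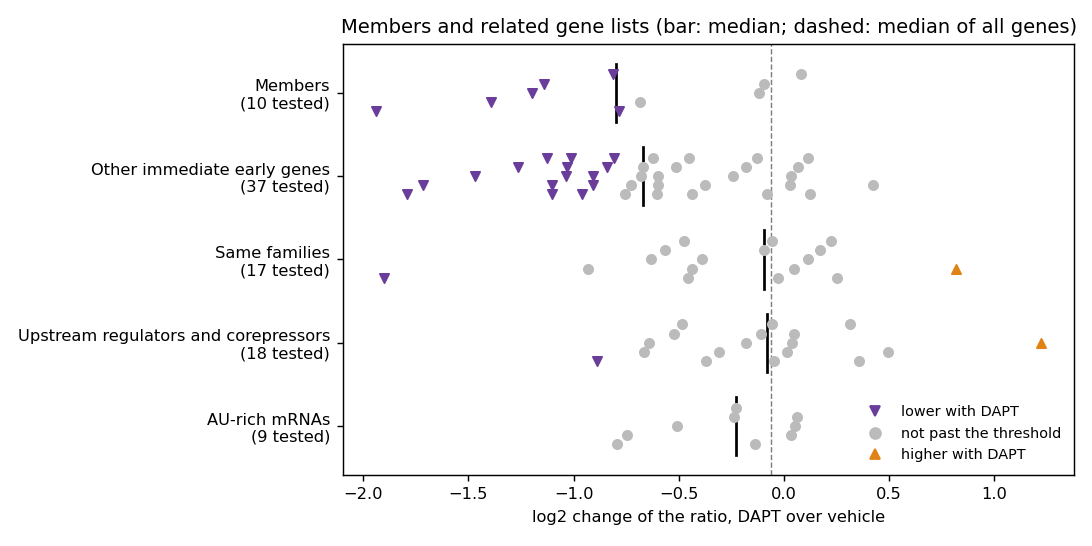
Log2 change of the ratio, DAPT over vehicle, of each tested gene of the members and of 4 related lists, with triangles for genes past the threshold, a bar at the median of each list and a dashed line at the median of all genes. The members and the other immediate early genes have medians of -0.80 and -0.67, while the other lists lie nearer to the median of all genes, which is -0.059. Members and lists were chosen with earlier results of these data known.

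Of 20 relatives of the members in the same families 17 were tested, 1 fell and 1 rose, near the background of 3.91% lower and 2.89% higher over all genes, and the median change was -0.094. Zfp36l1, which like Zfp36 encodes a protein that destabilises AU-rich mRNAs, fell by 1.90 ± 0.20 (limma, adjusted p = 0.000224), with log2 ratios of -0.21 and -0.043 with DAPT and 1.70 and 1.86 with vehicle. Klf11 rose by 0.82 ± 0.21 (limma, adjusted p = 0.0349), with log2 ratios of 0.86 and 0.93 with DAPT and 0.27 and -0.12 with vehicle. Klf11 lost that call with processed signals, median centring, scale normalization, an offset of 16, red alone and the debris spots kept. The call was also lost without DAPT 2 or vehicle 2. Where probes had to be well above background on all 4 arrays, 16 genes of the list were tested and none rose, so Klf11 had no call. Its second probe was at 0.51 (limma on every probe, adjusted p = 0.227). Klf5, a bright epithelial Klf gene, stood at -0.47 ± 0.20 and did not pass (limma, adjusted p = 0.167). Besides Zfp36l1, Ier5 fell without DAPT 2 (-1.38, limma, adjusted p = 0.000603) or vehicle 1 (-0.98, adjusted p = 0.0454), and Ier5l without vehicle 2 (-0.94, adjusted p = 0.0232). Ier5 and Ier5l are named after their values were seen. The nuclear receptor genes Nr4a2 and Nr4a3 were too dim to be tested.

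Among 22 genes of the kinases, factors and corepressors around these genes, 18 were tested, 1 rose and 1 fell, with a median of -0.081. These counts were near the background of 3.91% lower and 2.89% higher over all genes, whose median was -0.059. Nab1, a corepressor that binds Egr proteins, rose by 1.22 ± 0.20 (limma, adjusted p = 0.0042), with log2 ratios of 2.47 and 2.48 with DAPT and 1.10 and 1.40 with vehicle. Nab2 was too dim to be tested. Mef2a, a MADS-box factor related to serum response factor, fell by 0.89 ± 0.20 (limma, adjusted p = 0.0188), while its other probe stood at -0.29 (limma on every probe, adjusted p = 0.397). Srf itself, which encodes serum response factor, was at -0.11 ± 0.22 (limma, adjusted p = 0.813). The list had 0 rising and 0 falling members with processed signals, in red alone and with the debris spots kept, and 2 rising and 0 falling with median centring, so that Mef2a had no call in any of these, nor without DAPT 2. With scale normalization and with the replicate block 2 fell. Without vehicle 1 the kinase gene Mapk3, named after its value was seen, also fell (-0.80, limma, adjusted p = 0.0486).

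Of 11 genes whose AU-rich mRNAs tristetraprolin binds, 9 were tested, and none rose or fell by limma. The lowest of them were Tnf at -0.80, Csf2 at -0.74 and Ccl2 at -0.51, with limma's adjusted p at 0.0594, 0.0677 and 0.148. Tnf and Csf2 are named after their values were seen. Csf2 was not well above background on either DAPT array and was tested only through the vehicle arrays, so it is given as a value only. The brightest in red, Plaur, Ccl2 and Ptgs2, changed by -0.23, -0.51 and 0.034, and a second Plaur probe stood at 0.016. The brightest Vegfa probe stood at -0.24, and its other probes at -0.79 and -0.73 (limma on every probe, adjusted p = 0.0467 and 0.0585). Without vehicle 2, Tnf fell (-1.11, limma, adjusted p = 0.00794), as did the dim Csf2. In this list 2 genes fell with scale normalization and with the replicate block, and 1 with processed signals, median centring, an offset of 16 or marked spots left out. Over all genes 4.65% fell with scale normalization, 5.26% with the replicate block and 1.57% to 2.82% with the others. Over the members, lists and markers, 45 further probes were tested, and 9 of them had the opposite sign of the brightest probe.

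Of the lists of cell type markers, only that of fibroblasts and smooth muscle had most of its tested genes lower with DAPT. Of these 8 markers 5 fell (Col1a1, Col1a2, Col3a1, Dcn and Myh11), against 3.91% of all genes, with changes from -1.85 for Dcn to -1.16 for Myh11. The brightest Acta2 probe stood at -0.037 and another at -2.04, so its probes disagree. The summed red signal of those 8 was 55275 and 61061 with DAPT and 72450 and 82849 with vehicle. Most of that sum is the brightest Acta2 probe, with a mean log2 red signal of 15.58 with DAPT and 15.76 with vehicle. Of the luminal keratins Krt19 fell, with a change of -1.11 (limma, adjusted p = 0.00575). The changes of Krt8 (-0.36, adjusted p = 0.328) and of Krt18 (-0.099, adjusted p = 0.821) missed the threshold. Krt15 was the basal marker that fell, 1 of 6, with a change of -1.08, and its signal differed by -3.50 in red and by -2.42 in green. Only 2 of the 6 lay below 0, with a median of 0.16. Trp63 stood at 0.80 (limma, adjusted p = 0.152) and its other probe at 1.21 (limma on every probe, adjusted p = 0.0262). The summed red signal of the basal list was 138301 and 133354 with DAPT and 233901 and 132725 with vehicle. None of 3 endothelial markers tested passed, by limma or at an unadjusted p under 0.05, and Cdh5, Kdr, Tek and Tie1 were too dim to be tested. Their summed red signal was 3576 and 3664 with DAPT and 3338 and 2100 with vehicle. Hba-a1, a haemoglobin gene, fell by 0.99 as 1 of 6 blood and immune markers, whose summed red signal was 6064 and 6867 with DAPT and 5792 and 6669 with vehicle. What part these cell types have in the fall of the immediate early genes was not tested.

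**Figure D5:**
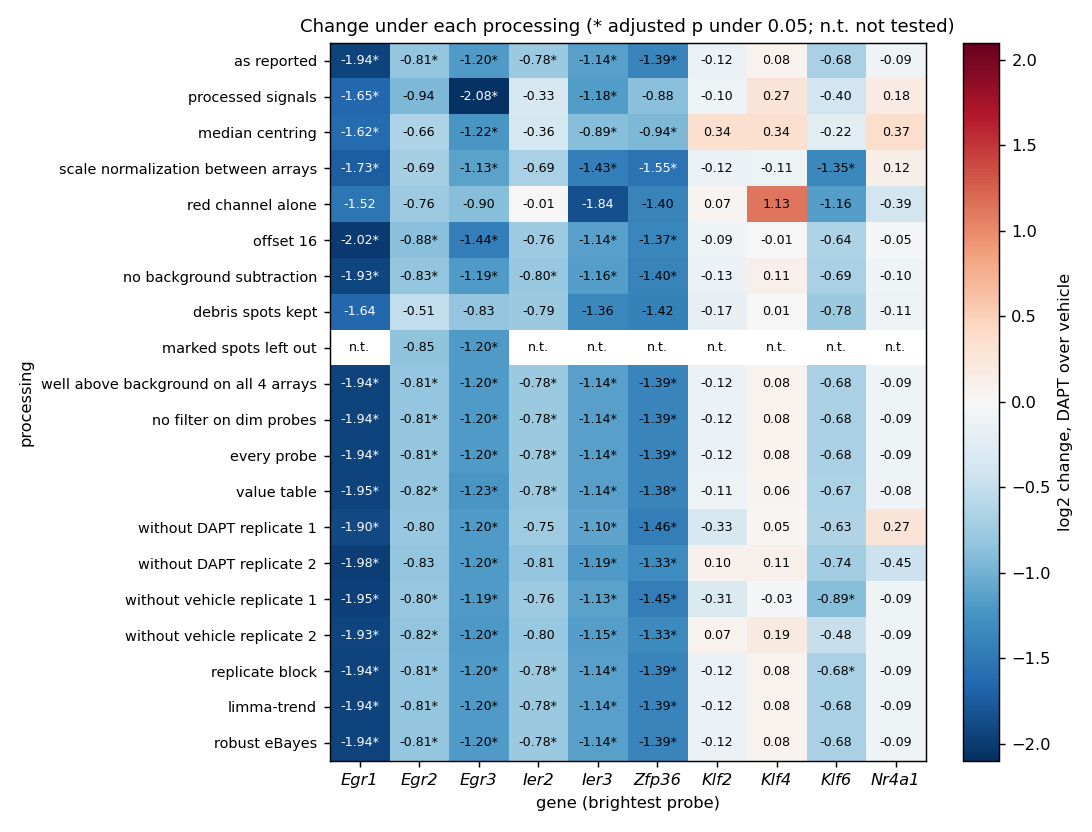
Log2 change of each member (columns), DAPT over vehicle, as reported and under 19 other ways of processing (rows), with blue for lower and red for higher with DAPT and a star where the adjusted p was under 0.05. Egr1, Egr3 and Ier3 carry a star in every row in which they were tested but red channel alone and debris spots kept, and Klf2, Klf4 and Nr4a1 carry none.

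Under the other ways of processing, the 6 genes that fell stayed below 0 each time they were tested. With another filter, every probe, the replicate block, limma-trend or robust eBayes their log ratios were unchanged, so the sign could not turn. Egr1 ranged from -2.02 to -1.52, Ier3 from -1.84 to -0.89, Zfp36 from -1.55 to -0.88, Egr3 from -2.08 to -0.83, Egr2 from -0.94 to -0.51 and Ier2 from -0.81 to -0.011. Klf6 was also below 0 in all 18 in which it was tested and passed in 3. Keeping 13 spots of DAPT 2 with a local background over 5 times the median in the background fit removed the call of all 6 genes, while Egr1 was still at -1.64. The calls of all genes split into 621 higher and 839 lower (42.5% higher), into 1290 and 523 with median centring (71.2%) and into 385 and 998 with scale normalization (27.8%).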

How the data were processed

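The members and gene lists were chosen with earlier results of these data known. Per the file headers, Agilent Feature Extraction 10.7.3.1 gave unnormalized median intensity values of each spot and its local background in red and green, and processed intensities that were background-subtracted and dye-normalized. The log10 ratio of red over green, per the file headers, served only to check the direction of the authors' table. Values of the authors' deposited table are log2 ratios whose normalization the sources used here do not give. They correlated at 0.869 to 0.902 with the scanner ratios and had column medians of -0.015, -0.011, 0.00072 and -0.011. With the ratios after loess used here they correlated at 0.9996 to 0.9998. The fit of the deposited values is therefore close to a repeat of the reported fit. Per the labels' protocols, 2.5 µg of total RNA was used per array. No spot was saturated, and the number of arrays limits the precision.

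Background was corrected with normexp (offset 50), followed by within-array loess that gave no weight to control spots. On DAPT 2, 13 spots with a local background over 5 times the array median were left out. Probes were named through RefSeq accessions of GRCm38.p6 (24375 of 41174). Probes had to be well above background in the red channel of both DAPT or both vehicle arrays. The brightest such probe was taken for each gene (21464 genes, 13987 named). limma 3.58.1 in R 4.3.3 (lmFit, eBayes, two-sided) was used with no block, with 2 residual and 10.2 prior degrees of freedom. Each SE therefore draws more on the spread shared by all genes than on the 4 arrays of that gene. The p-values were adjusted over all genes at a threshold of 0.05. The fit was tested on simulated data. Red and green values after loess and Aquantile normalization are descriptive. Named genes are all members and, from each list, up to 6 genes past the threshold by size or the brightest up to 3. Neighbours in pattern are taken from the 3 nearest named genes. A few genes of the lists and neighbours are not reported here. All 4 arrays share 1 slide and 1 scan, and position on the slide cannot be told apart from the group.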

Additional observations from a re-analysis of the deposited data

How the results depend on the processing

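Counts of genes higher and lower with DAPT were 292 and 338 with processed signals (3 members lower), 1290 and 523 with median centring, 385 higher with scale normalization, 0 and 1 in red alone (0 members), 3 and 70 with the debris spots of DAPT 2 kept (0 members) and 286 and 176 of 6933 genes without marked spots, where only Egr2 and Egr3 of the members could be tested and 1 was lower. The 3 that were higher with debris kept were Prl2c3, Prl2c5 and a probe without a gene symbol, named after their values were seen. Leaving out 1 array gave 427 to 813 higher, 611 to 1015 lower, 4 to 6 members lower and 0 higher, with a lone array assumed to vary like the other group. Signs turned for Nr4a1 with processed signals (0.18), median centring (0.37), scale normalization (0.12) and without DAPT 1 (0.27), for Klf2 with median centring (0.34), in red alone (0.065) and without DAPT 2 (0.097) or vehicle 2 (0.071), and for Klf4 with scale normalization (-0.11), offset 16 (-0.015) and without vehicle 1 (-0.032). Without 1 array Klf2 ranged from -0.33 to 0.097, Klf4 from -0.032 to 0.19 and Nr4a1 from -0.45 to 0.27. The cause was not tested. Egr2 did not pass with processed signals, median centring or scale normalization (limma, adjusted p = 0.0978, 0.0563 and 0.0545). Without marked spots Egr2 was at -0.85, with DAPT 1 as its only DAPT array. Ier2 passed in 8 of 18 alternatives, and among these only no background subtraction and the deposited values changed its log ratios. Whether arrays with the same replicate number share a culture or day is not given in the labels. Their deviations from the group means correlated at 0.0848 over 21464 genes, which with 2 arrays per group cannot decide it. With the replicate block 7 members were lower, Klf6 at adjusted p = 0.0478, and 867 genes were higher and 1128 lower, and no other member changed its call. A block for slide or scan was not run, since 1 slide holds all 4 arrays. Spots near background, as for Egr3, and 2 arrays per group limit what these values can show.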
